A study of Rattus norvegicus with 24 samples.

Results

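The 10 genes described here carry VEGF (vascular endothelial growth factor), angiopoietin and apelin signaling between muscle and its capillaries: the ligands Vegfa, Vegfb, Angpt1 and Apln, their receptors Kdr, Flt1, Tek and Aplnr, and the endothelial junction genes Pecam1 and Cdh5. They were chosen by name from the 13458 gene symbols of the expression table, taking the transcript row with the highest mean where a symbol had several. All 10 had a row and passed the filter on low values. The tissue was the tibialis anterior (TA) of male rats of the Fischer 344 strain, aged 23 ± 1 months, with both limbs of 12 animals sequenced. In 9 animals tetrodotoxin (TTX), a sodium channel blocker, was delivered by an osmotic pump to the left common peroneal nerve, so that the TA could not be activated. Left limbs of 3 animals were taken after a first silencing of 6 to 7 days (atrophy), of 3 after 9 more days without TTX (recovery), and of 3 after a second silencing of 5 to 6 days (repeated atrophy). No TTX was given to the opposite, right limbs of the 9 animals, which formed the control group, so that this group shares its animals with the treated limbs. The other 3 animals had the surgery without TTX, 1 at each of these times (sham animals 1, 2 and 3 at atrophy, recovery and repeated atrophy).

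VEGF ligands released by muscle fibers and other cells act on capillary endothelium, Vegfa through Kdr, the main signaling receptor. Flt1 binds both Vegfa and Vegfb and limits how much Vegfa reaches Kdr. Angpt1, made by cells around the vessel, activates the receptor Tek and stabilizes the vessel wall. Apelin is a secreted peptide that signals through Aplnr, a G protein-coupled receptor of endothelium, and is also released by muscle. Pecam1 and Cdh5 (VE-cadherin) join endothelial cells to each other and mark them in mixed tissue. In whole muscle, fewer cells of a type and less RNA per cell cannot be told apart.

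Apln, Vegfb and Vegfa were the ligands with the largest share of the results below that had an entry in the RefSeq promoter table. Their upstream sequences are shown. Each is the 250 bases before a transcript start (RefSeq, build GRCr8), on the strand of the gene, in lower case with matches to a searched motif in capitals. The motifs, searched on both strands, were the hypoxia response cores ACGTG and GCGTG and the estrogen-related receptor element AAGGTCA. That table matched 5 of the 10 gene symbols, with 2 starts for Vegfa.
Apln, chrX:132091247-132091496, minus strand: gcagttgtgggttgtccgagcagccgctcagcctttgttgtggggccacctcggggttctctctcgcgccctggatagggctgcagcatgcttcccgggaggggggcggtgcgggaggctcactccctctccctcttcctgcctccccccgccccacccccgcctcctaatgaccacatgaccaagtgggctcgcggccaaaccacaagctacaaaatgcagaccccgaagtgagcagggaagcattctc
Vegfb, chr1:213607153-213607402, minus strand: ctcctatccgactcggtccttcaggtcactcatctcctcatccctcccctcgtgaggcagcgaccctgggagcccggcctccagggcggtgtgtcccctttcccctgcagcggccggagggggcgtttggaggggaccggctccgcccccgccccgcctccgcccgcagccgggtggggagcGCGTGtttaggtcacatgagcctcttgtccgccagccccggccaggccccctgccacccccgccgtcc
Vegfa, chr9:22452604-22452853, plus strand: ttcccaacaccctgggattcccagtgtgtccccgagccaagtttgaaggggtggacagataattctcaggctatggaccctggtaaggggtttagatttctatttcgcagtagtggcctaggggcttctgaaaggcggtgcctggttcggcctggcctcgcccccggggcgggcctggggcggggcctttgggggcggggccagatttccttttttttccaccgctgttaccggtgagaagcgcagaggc
The Vegfb window held 1 GCGTG core, and the Apln and Vegfa windows printed here held no match. Of the windows not printed, that of Kdr held 2 GCGTG cores, that of Flt1 held 1, and the other Vegfa start held 1 AAGGTCA element. On rn7 the Vegfa rows begin at 14955300 or 14962725, and the row used for Vegfa below begins at the second. The Vegfa window printed is the first of the 2 in position on GRCr8. By this order the Vegfa window not printed is the one before that row. The builds differ, and this pairing was not tested. Among all 33469 windows of this length, 36.7% held a hypoxia core and 3.99% held AAGGTCA. A match describes the letters of the window only.

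Values are CPM (counts scaled to a fixed library total) as deposited, from libraries inferred to hold 18.9 to 30.9 M reads. Changes are log2 fold changes of CPM + 1, which understate the change of low genes, and a gene was called where limma gave at least a 1.2-fold change with an adjusted p no higher than 0.05. The median change of all 14031 rows tested was 0.22 in atrophy, 0.02 in recovery and 0.20 in repeated atrophy. Values rescaled by the median of ratios, which brings these medians near 0, are therefore given beside the deposited ones. The study's methods name a median of ratios normalization for its differential expression, whereas each deposited column sums to the fixed total of CPM, so the rescaled values are the closer of the 2 scales to that method.

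In control limbs Vegfa had the highest level per transcript length, at 71.5 ± 15.2 CPM per kb (SD, n = 9). Vegfb at 30.7 ± 5.60 CPM per kb overlapped Pecam1 at 26.3 ± 3.48, and Cdh5 followed at 13.4 ± 2.82. Flt1 (6.81 ± 0.465), Tek (4.89 ± 1.34), Kdr (4.30 ± 0.715), Aplnr (3.86 ± 0.817), Angpt1 (1.94 ± 0.479) and Apln (1.11 ± 0.849 CPM per kb) came next, each overlapping its neighbor in this order. The steps from Vegfa to Vegfb, from Pecam1 to Cdh5 and from Cdh5 to Flt1 showed no overlap between limbs.

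**Figure D1:**
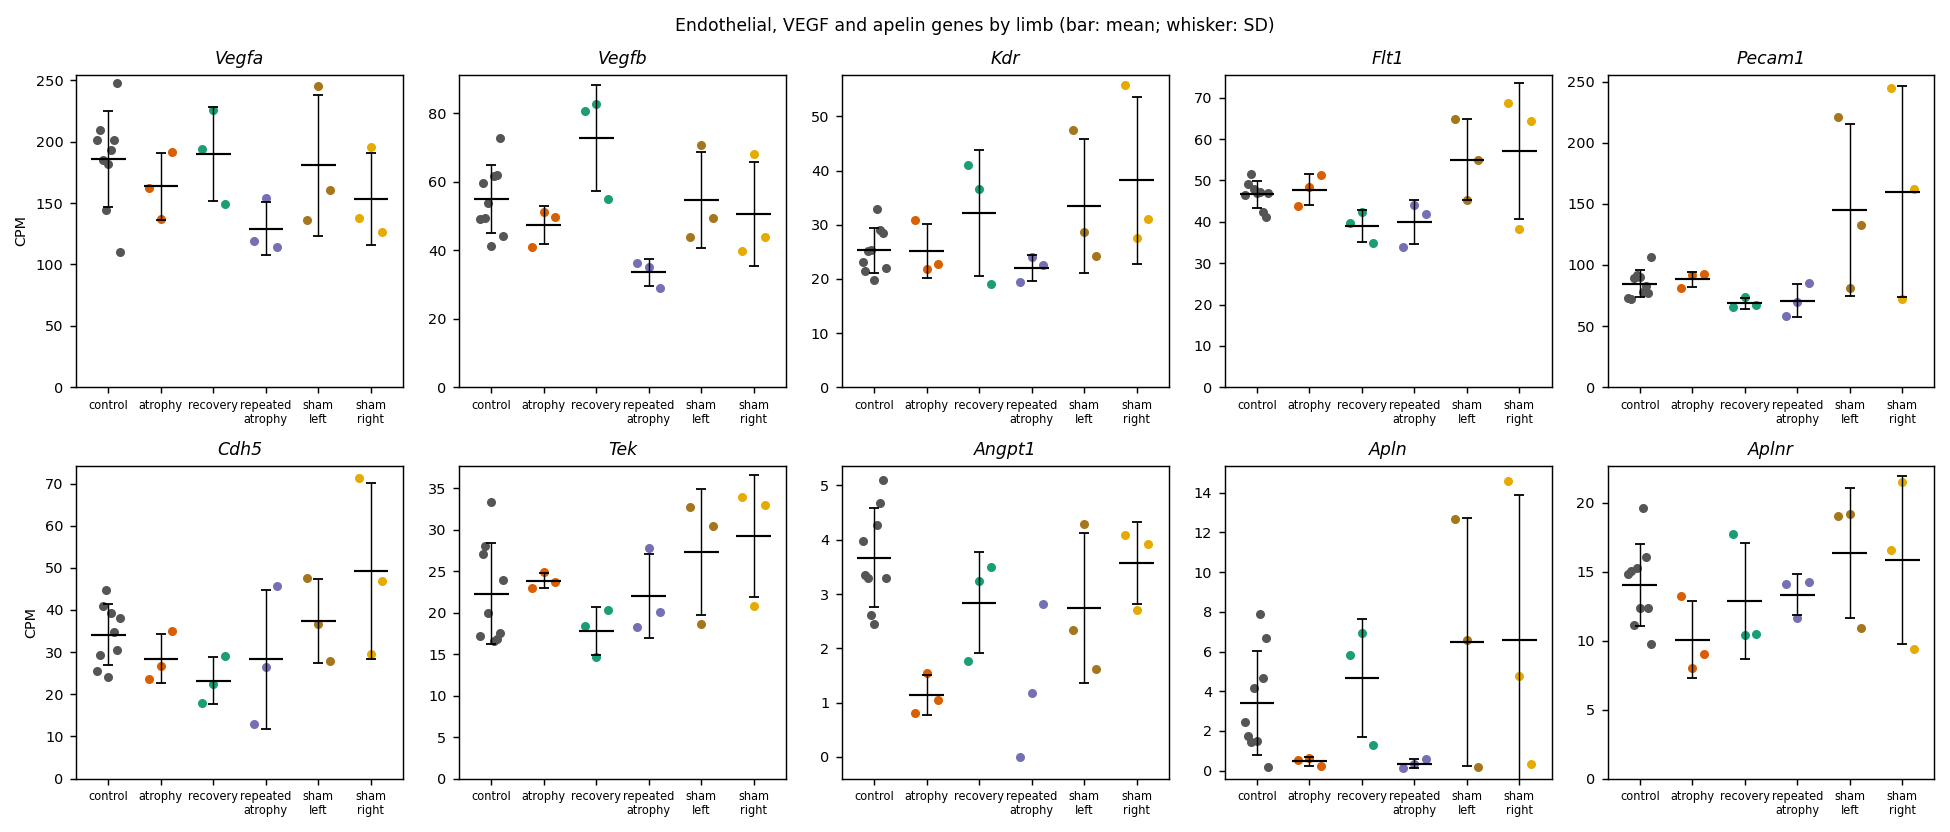
CPM of each gene in every limb, 1 panel per gene with its own linear axis; points are limbs (9 control and 3 in each other group), with the mean and SD of each group except for Angpt1 in repeated atrophy, where a limb was listed at 0. All repeated atrophy limbs lay below the control limbs for Vegfb, and all atrophy limbs did for Angpt1. When rescaled (not shown) all repeated atrophy limbs also did for Angpt1, Kdr, Flt1 and Pecam1. The share of all rows without such overlap was not counted.

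On deposited CPM the genes called against control were all ligands. After atrophy 2 of the 10 genes fell, Angpt1 and Apln, where 2.33% of all rows were called lower and 20.3% higher. After recovery none was called (3.33% of all rows lower, 4.4% higher; 3 of the 10 had an unadjusted p under 0.05). After repeated atrophy 3 fell, Angpt1, Apln and Vegfb, where 6.24% of all rows were called lower and 28.1% higher. The median change of the 4 ligands was -0.66, 0.22 and -0.93 in the 3 phases, and that of the 6 receptors and junction genes was 0.01, -0.27 and -0.20. When rescaled they were -0.96, 0.20 and -1.25 for the ligands and -0.35, -0.28 and -0.57 for the receptors and junction genes.

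The number of calls after atrophy depended on which atrophy animals were kept. Without animal 1, 0% of all rows were called lower and 0.00715% higher (1 of 13993 rows), with 2867 rows and 3 of the 10 genes at an unadjusted p under 0.05. The shares were 3.85% and 30.7% without animal 2 and 1.25% and 11.9% without animal 3. The left limb of animal 2 had a median of ratios factor of 1.01, within the 0.781 to 1.04 of control limbs. Those of animals 1 and 3 were at 1.28 and 1.25. A fit with the animal as a block called 0% of all rows after atrophy, with 2678 rows and 1 of the 10 genes at an unadjusted p under 0.05, and 0.0641% after recovery (0% and 0.449% with rescaling). The block takes the pairing of limbs into account, and no call after atrophy was kept under it. As this loss covered all rows, it does not set 1 gene apart from another, and blocked changes there are given mainly for size and direction. With block and rescaling, the unadjusted limma p after atrophy was 0.011 for Angpt1, 0.0096 for Aplnr and 0.14 for Apln. Rows called after recovery numbered 1084, and 184, 457 and 537 without recovery animals 1, 2 and 3, and those after repeated atrophy 4812, and 2573 without repeated atrophy animal 2.

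Apln (chrX:127203821-127213313, minus strand, rn7), the apelin precursor gene, ranged from 0.206 to 7.91 CPM in control limbs, with a median of 2.45. Apln was at 0.544, 0.653 and 0.228 CPM in the atrophy limbs, 5.82, 6.92 and 1.31 CPM in the recovery limbs and 0.126, 0.319 and 0.573 CPM in the repeated atrophy limbs. All 6 silenced limbs were low, and they overlapped the control limbs through the lowest of these, the right limb of atrophy animal 3. By the inferred depth the silenced limbs held about 3 to 17 Apln reads each. Apln fell by 1.35 after atrophy (SE 0.48, adjusted p = 0.0498) and by 1.49 after repeated atrophy (SE 0.48, adjusted p = 0.022). The size depended on the pseudocount, with -2.21 and -2.65 for a pseudocount of 0.1 (adjusted p = 0.040 and 0.0099) and -0.33 and -0.35 for one of 10 (adjusted p = 0.10 and 0.070). When rescaled, with the pseudocount of 1, the changes were -1.53 (adjusted p = 0.071) and -1.67 (adjusted p = 0.025).

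The first Apln call lay at the threshold, and leaving out any 1 of the 9 animals ended it (adjusted p 0.055 to 0.21, the highest without atrophy animal 1, where 1 row was called in all). With a block for the animal the atrophy change was -0.57 (adjusted p = 0.41, in the fit that called 0% of all rows). The repeated atrophy change was -1.29 with the block (adjusted p = 0.028), and left minus right was below 0 in 3 of 3 animals (-1.72 to -0.88). That call was lost with a pseudocount of 10, as given above, and without repeated atrophy animal 1 (adjusted p = 0.076), 2 (0.075) or 3 (0.063). In recovery the change was 0.42 against all control limbs (adjusted p = 0.62) and -0.54 with the block (adjusted p = 0.45), so that its direction depended on the block. The right limbs of the recovery animals, at 7.91, 4.64 and 6.70 CPM, were the 3 highest Apln control limbs. Those of the atrophy animals were at 2.45, 1.48 and 0.206 CPM.

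Sham limbs also held a wide range of Apln without any TTX. The left limbs were at 12.7, 6.60 and 0.202 CPM and the right limbs of the same animals at 14.6, 4.79 and 0.324 CPM. Both limbs of sham animal 1 were above every control limb, and both limbs of sham animal 3 were as low as silenced limbs.

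Aplnr (chr3:70217407-70221053, plus strand, rn7), the apelin receptor gene, was at 9.79 to 19.7 CPM in control limbs (median 14.9). It was at 13.2, 7.99 and 9.04 CPM after atrophy, 17.7, 10.4 and 10.5 CPM after recovery and 14.1, 11.7 and 14.3 CPM after repeated atrophy. Atrophy animals 2 and 3 lay below every control limb. The atrophy change of Aplnr was -0.45 (adjusted p = 0.13), -0.79 when rescaled (SE 0.22, adjusted p = 0.034), and -0.52 with block and rescaling (adjusted p = 0.20, in the fit that called 0% of all rows). In repeated atrophy it was -0.05 (adjusted p = 0.89), -0.41 when rescaled (adjusted p = 0.20) and -0.39 with block and rescaling (adjusted p = 0.12).

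Angpt1 (chr7:73533462-73783954, minus strand, rn7), the Tek agonist, was at 2.44 to 5.11 CPM in control limbs (median 3.36). It was at 0.816, 1.54 and 1.04 CPM after atrophy, 1.77, 3.23 and 3.50 CPM after recovery and 0, 1.17 and 2.82 CPM after repeated atrophy, where animal 1 was listed at 0. The atrophy limbs were all below the control limbs, whereas repeated atrophy animal 3 lay among them. Without TTX, the sham left limbs were at 2.33, 4.29 and 1.62 CPM and the right limbs of the same animals at 4.10, 2.71 and 3.92 CPM, so that the left limbs of sham animals 1 and 3 were also below every control limb. The sham left difference from control was -0.36 (adjusted p = 0.46). Angpt1 fell by 1.12 after atrophy (SE 0.29, adjusted p = 0.014) and by 1.18 after repeated atrophy (SE 0.29, adjusted p = 0.0047), and both calls held when rescaled (-1.35 and -1.44). For a pseudocount of 0.1 the changes of Angpt1 were -1.62 (adjusted p = 0.065) and -2.35 (adjusted p = 0.0065), and for one of 10 -0.29 (adjusted p = 0.010) and -0.28 (adjusted p = 0.0052), so that the atrophy call was lost with 0.1. With the block the changes were -0.99 (adjusted p = 0.20) and -1.01 (adjusted p = 0.061) after atrophy and repeated atrophy, and with block and rescaling -1.12 (adjusted p = 0.20) and -1.26 (adjusted p = 0.033). The atrophy call was lost without atrophy animal 1 (adjusted p = 0.16) or 3 (0.054), and the repeated atrophy call without repeated atrophy animal 1 (-0.68, adjusted p = 0.064).

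Tek (chr5:109607077-109733805, plus strand, rn7), the angiopoietin receptor gene, was at 16.6 to 33.3 CPM in control limbs, 23.01 to 24.9 CPM after atrophy, 14.7 to 20.3 CPM after recovery and 18.2 to 27.7 CPM after repeated atrophy. Each treated group overlapped the control limbs. The repeated atrophy change of Tek was 0.00 (SE 0.21, adjusted p = 0.99), -0.36 when rescaled (adjusted p = 0.15) and -0.55 with block and rescaling (adjusted p = 0.023).

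Vegfb (chr1:204174322-204177945, minus strand, rn7), a VEGF ligand of Flt1, was at 41.3 to 72.8 CPM in control limbs (median 53.9). It was at 41.1, 51.2 and 49.8 CPM after atrophy, 80.8, 82.8 and 55.05 CPM after recovery and 36.4, 35.3 and 28.9 CPM after repeated atrophy. The repeated atrophy limbs were all below the control limbs, and recovery animals 1 and 2 were above them. Vegfb fell by 0.68 after repeated atrophy (SE 0.17, adjusted p = 0.0044), by 0.68 with the block (adjusted p = 0.025) and by 1.06 when rescaled (adjusted p = 0.0026). The call held under all 13 other settings (adjusted p 0.0022 to 0.025) and without any 1 of the 9 animals (0.0021 to 0.045). The left limb was lower in 3 of 3 repeated atrophy animals (-0.88 to -0.48). In recovery the change of Vegfb was 0.40 (adjusted p = 0.14), and 0.64 without recovery animal 3 (adjusted p = 0.048). The right limbs of the recovery animals, at 61.8, 62.1 and 72.8 CPM, were the 3 highest control limbs. Against them left minus right was -0.40 to 0.41, with a mean of 0.13 (SD 0.46, n = 3), and the recovery change was 0.13 with the block (adjusted p = 0.74) and 0.00396 with block and rescaling, in fits that called 0.0641% and 0.449% of all rows.

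Vegfa (chr9:14962725-14970641, plus strand, rn7), the main angiogenic VEGF ligand, was at 110.1 to 248 CPM in control limbs (median 193). It was at 162, 137 and 192 CPM after atrophy, 194, 226 and 149 CPM after recovery and 119, 154 and 114 CPM after repeated atrophy, so that every treated limb lay among the control limbs. The repeated atrophy change of Vegfa was -0.50 (SE 0.20, adjusted p = 0.055), with the left limb lower in 3 of 3 animals (-0.81 to -0.26). Rescaled it fell by 0.89 (adjusted p = 0.012), and it was -0.85 with block and rescaling (adjusted p = 0.050045). Without atrophy animal 3, whose right limb was the lowest control, it was -0.59 (adjusted p = 0.0074).

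**Figure D2:**
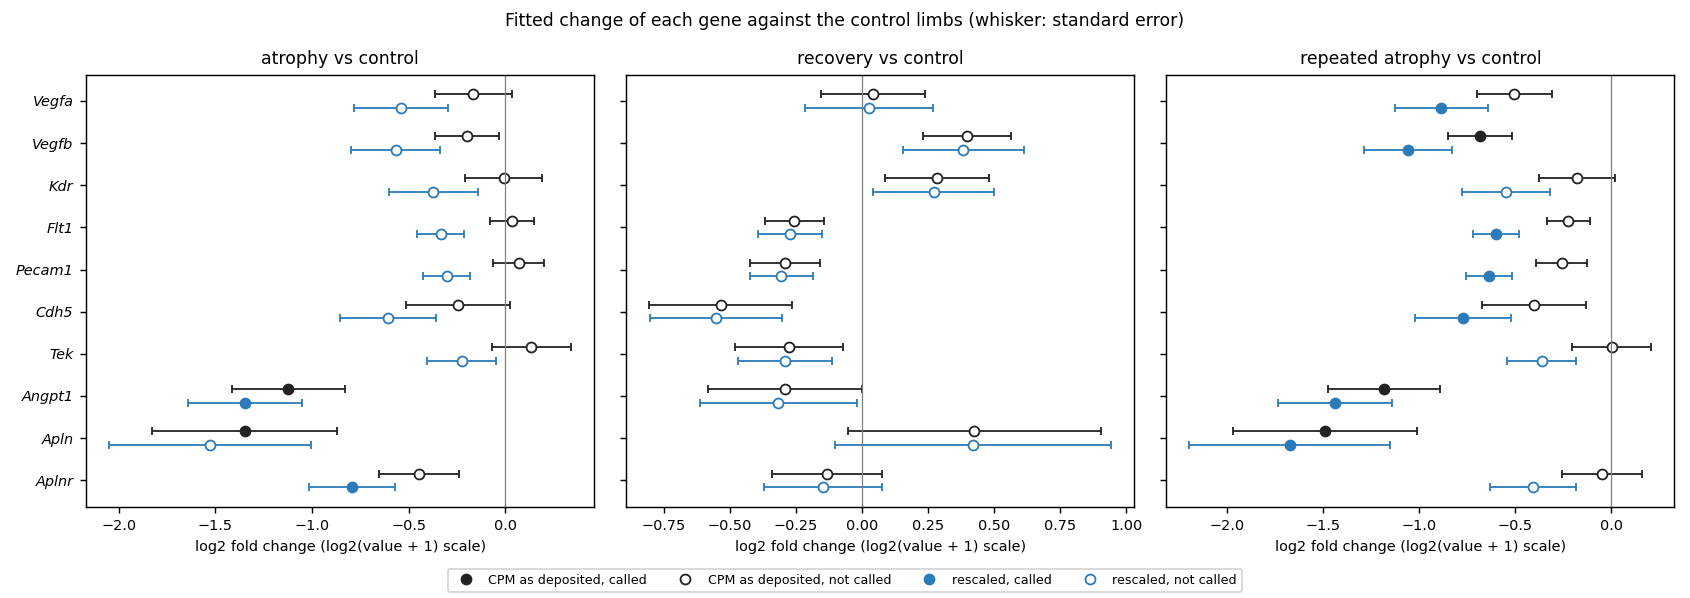
Log2 fold change of each gene against the 9 control limbs, on the log2(value + 1) scale, for deposited CPM and for rescaled values in atrophy, recovery and repeated atrophy; whiskers are standard errors, and filled points were called. In repeated atrophy 3 genes were called on deposited CPM (6.24% of all rows lower, 28.1% higher) and 7 when rescaled (12% lower, 13.2% higher), all below 0.

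Vegfa reads were spread over 9 transcript rows that overlap in position, so the authors' counting could have split them between rows and single rows are uncertain. The row used above held 62.97% of the Vegfa CPM in control limbs. The 3545-base Vegfa row was at 62.97 ± 17.1 CPM in control (SD, n = 9) and 31.9 ± 11.1 CPM in repeated atrophy (SD, n = 3), where it fell by 0.97 (adjusted p = 0.010; -1.13 with the block, adjusted p = 0.013). The 2528-base Vegfa row was at 24.3 ± 12.7 CPM in control and 58.3 ± 21.4 CPM in recovery, a rise of 1.34 (adjusted p = 0.041) that missed the threshold when rescaled (1.33, adjusted p = 0.054) and with the block (1.01, adjusted p = 0.27, where 0.0641% of all rows were called). Its share of Vegfa CPM was 7.93% ± 3.06 in control and 17.6% ± 2.84 in recovery. All 9 rows summed gave 297 ± 63.5 CPM in control and 199 ± 29.4 CPM in repeated atrophy, where summed Vegfa fell by 0.55 (adjusted p = 0.039). With the block the summed change was -0.57 (adjusted p = 0.10), and -0.95 with block and rescaling (adjusted p = 0.031). These blocked fits were chosen after seeing the data.

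**Figure D3:**
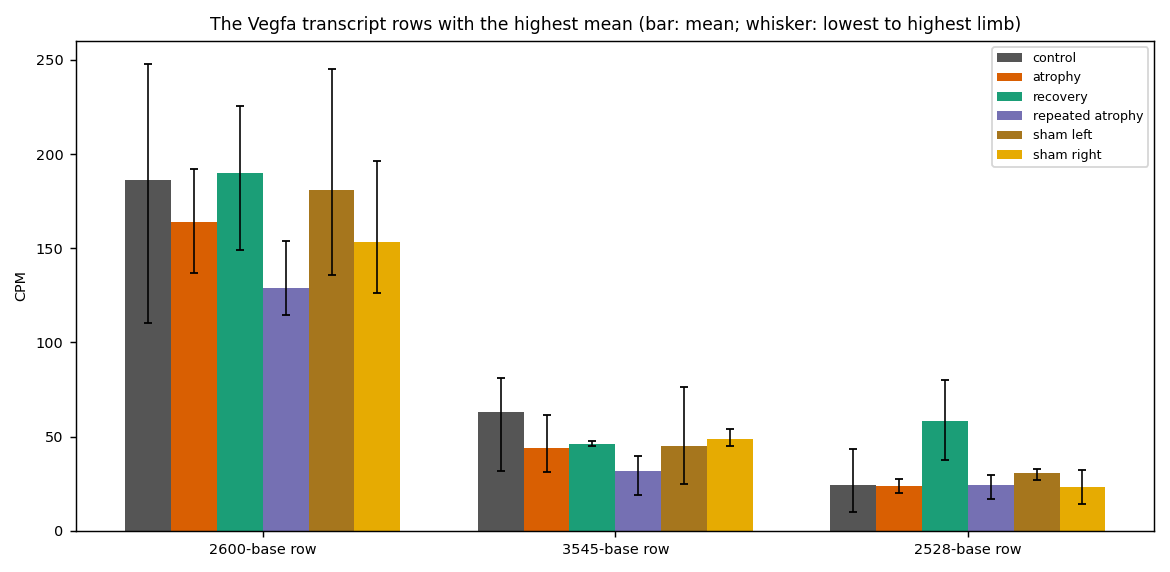
CPM of the 3 Vegfa transcript rows with the highest mean, by group; bars are means and whiskers run from the lowest to the highest limb. The 3545-base row was lowest in repeated atrophy and the 2528-base row highest in recovery.

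The VEGF receptors were not called against control on deposited CPM. Kdr (chr14:32217886-32261014, plus strand, rn7) was at 19.8 to 32.9 CPM in control limbs, 30.8, 21.7 and 22.7 CPM after atrophy, 41.00, 36.5 and 19.1 CPM after recovery and 19.3, 24.1 and 22.6 CPM after repeated atrophy. The recovery limbs of animals 1 and 2 lay above every control limb and that of animal 3 below, and the recovery change of Kdr was 0.28 (adjusted p = 0.39). The right limbs of the recovery animals, at 32.9, 29.0 and 28.4 CPM, were the 3 highest Kdr control limbs. When rescaled the repeated atrophy change of Kdr was -0.55 (adjusted p = 0.089), with all 3 limbs below the control limbs. Flt1 (chr12:7297292-7468627, plus strand, rn7) was at 41.1 to 51.5 CPM in control limbs, 43.7, 48.4 and 51.2 CPM after atrophy, 39.6, 42.4 and 34.8 CPM after recovery and 33.95, 44.1 and 41.8 CPM after repeated atrophy. Its repeated atrophy change was -0.22 (SE 0.11, adjusted p = 0.13), and -0.60 when rescaled (SE 0.12, adjusted p = 0.0016). The other Flt1 row, which overlaps it and could share its reads, gave -0.28 (adjusted p = 0.15) and -0.65 (adjusted p = 0.0061).

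Pecam1 (chr10:91590521-91652117, minus strand, rn7), an endothelial adhesion gene, was at 71.9 to 107 CPM in control limbs and 81.2, 91.5 and 92.3 CPM after atrophy. It was at 65.2, 73.6 and 66.9 CPM after recovery and 58.03, 69.8 and 84.9 CPM after repeated atrophy. The repeated atrophy change of Pecam1 was -0.26 (SE 0.13, adjusted p = 0.14), and -0.64 when rescaled (SE 0.12, adjusted p = 0.00091).

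Cdh5 (chr19:816849-854369, minus strand, rn7), the VE-cadherin gene, was at 24.02 to 44.7 CPM in control limbs and 23.7, 26.7 and 35.01 CPM after atrophy. It was at 18.02, 22.4 and 29.2 CPM after recovery and 12.9, 26.4 and 45.7 CPM after repeated atrophy, where the 3 limbs spread beyond the control limbs on both sides. Its repeated atrophy change was -0.40 (adjusted p = 0.28), and -0.77 when rescaled (adjusted p = 0.030). On deposited CPM it was -0.77 without repeated atrophy animal 3 (adjusted p = 0.039) and 0.0323 without animal 1.

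Rescaling took the genes that fell after repeated atrophy from 3 to 7 of 10, adding Vegfa, Flt1, Pecam1 and Cdh5, where 12% of all rows were called lower and 13.2% higher. With the block 2 fell, Apln and Vegfb (5.66% of all rows lower), and with block and rescaling 7 fell, Tek among them and Vegfa not (10.2% of all rows lower). After atrophy 2 of 10 fell when rescaled, Angpt1 and Aplnr (5.17% of all rows lower, 4.57% higher), and after recovery none was called (5.87% lower, 6.24% higher). The atrophy changes of Tek, Flt1 and Pecam1 were above 0 on deposited CPM (0.14, 0.03 and 0.07) and below 0 when rescaled (-0.22, -0.33 and -0.30), and none of these was called.

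**Figure D4:**
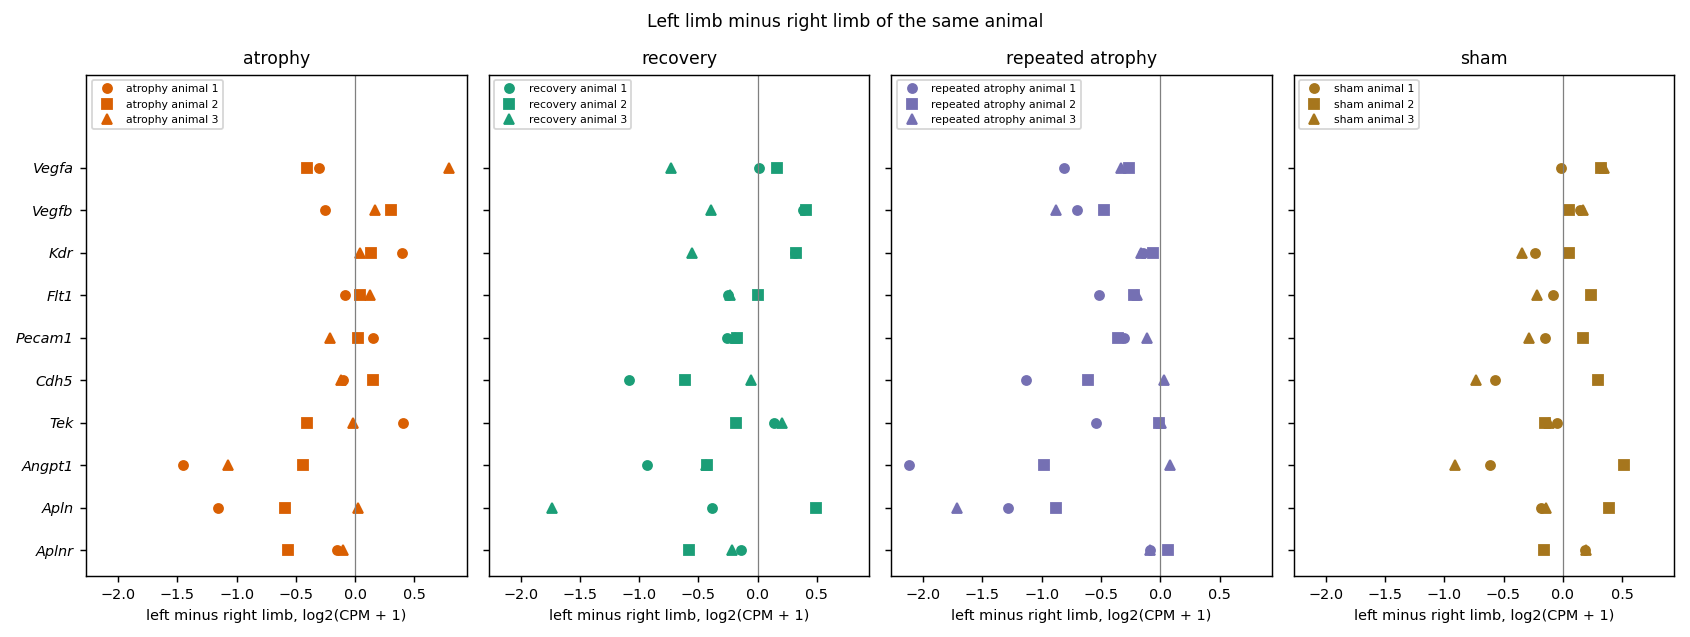
Left minus right limb of the same animal in log2(CPM + 1) for each gene, by group, with 1 point per animal and a common axis. On this scale Apln, Vegfa, Vegfb, Kdr, Flt1 and Pecam1 were lower in the left limb in all 3 repeated atrophy animals. When rescaled (not shown) Angpt1, Aplnr, Cdh5 and Tek were too, so that every gene plotted was, and rescaling lowers most rows in these limbs. The share of all rows with this pattern was not counted on either scale.

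Between treated groups, Apln was higher in recovery than in atrophy by 1.77 (SE 0.59, adjusted p = 0.044), the 1 call among the 10 genes (3.34% of all rows higher, 14.5% lower). This Apln change was 0.47 with a pseudocount of 10, where it was not called, and 2.84 with 0.1. When rescaled the call was Vegfb instead (0.95, adjusted p = 0.039; 5.77% of all rows higher, 4.85% lower), and with block and rescaling this Vegfb difference was 0.19 (SE 0.35, adjusted p = 0.90). Repeated atrophy was lower than recovery for Apln by 1.91 (adjusted p = 0.022) and for Vegfb by 1.08 (SE 0.20, adjusted p = 0.0020), where 6.29% of all rows were called lower and 21% higher. The Apln change here was -0.48 with a pseudocount of 10, where it was not called, and -3.28 with 0.1. When rescaled Angpt1, Kdr and Vegfa were called lower too (11.3% of all rows lower, 10.3% higher). In this comparison 5 of the 10 genes were below 0 on deposited CPM and 10 of 10 when rescaled, where 35.04% and 50.9% of all rows were. Flt1 was at 0.03 on deposited CPM (adjusted p = 0.88), -0.33 when rescaled (adjusted p = 0.13) and -0.47 with its rows summed and rescaled (adjusted p = 0.031). In recovery against atrophy Flt1 went from -0.29 to 0.06 and Cdh5 from -0.29 to 0.06 with rescaling, and neither was called. With the block 0.0143% of all rows were called in recovery against atrophy and 0.0855% in repeated atrophy against recovery (0.0143% and 0.0499% with rescaling), and none of the 10 genes was among them: Apln was 0.03 (adjusted p = 0.995) in recovery against atrophy and -0.75 (adjusted p = 0.46) in repeated atrophy against recovery, where Vegfb was -0.82 (adjusted p = 0.17). Leaving out 1 animal at a time, the recovery against atrophy call of Apln held in 1 of 9 cases, without recovery animal 3, and the repeated atrophy against recovery call in 5 of 9, being lost without repeated atrophy animal 1 or 2 (adjusted p = 0.063 for both) or recovery animal 1 (0.070) or 2 (0.11). No gene of the 10 was called in limma between repeated and first atrophy (0.0356% of all rows called; 1 of the 10 had an unadjusted p under 0.05).

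Sham surgery gave no call in limma. Against control limbs 0% of all rows were called, with 1904 rows and 1 of the 10 genes at an unadjusted p under 0.05, and between the limbs of sham animals 0% were called, with 576 rows and 0 of the 10. Pecam1 was at 221, 81.2 and 133 CPM in sham left limbs and 245, 72.2 and 162 CPM in sham right limbs, above every control limb in both limbs of animals 1 and 3. Without sham animal 2 its difference from control was 1.02 (adjusted p = 0.035). A list of 26 other endothelial markers summed to 469.7 to 954 CPM in sham left and 416 to 1022 CPM in sham right limbs, against 382 to 537 CPM in control, and its part in the Pecam1 values was not tested.

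Related genes were taken from lists. Of 4 other angiopoietin and Tie genes 1 fell after atrophy (2.33% of all rows lower) and 2 after repeated atrophy (6.24% of all rows lower). In repeated atrophy 3 were lower when rescaled (12% of all rows), 1 with the block (5.66%) and 3 with block and rescaling (10.2%). Angpt2, a context-dependent Tek ligand, went from 7.40 ± 2.06 CPM in control to 2.52 ± 0.760 CPM in repeated atrophy (SD, n = 9 and 3) and fell by 1.22 (adjusted p = 0.0024). Tie1, the partner receptor of Tek, went from 27.9 ± 4.95 CPM in control to 19.3 ± 5.22 CPM in repeated atrophy and fell by 0.52 (adjusted p = 0.032; 0.058 with the block). Of 6 other VEGF ligands and receptors 2 rose after recovery (4.4% of all rows higher) and 1 after repeated atrophy (28.1% higher). When rescaled 1 was lower after atrophy (5.17% of all rows lower), 2 higher after recovery (6.24% higher), and none higher and 1 lower after repeated atrophy (13.2% higher, 12% lower). After repeated atrophy Vegfc, a lymphatic growth factor, went from 1.12 ± 0.369 CPM in control to 2.07 ± 0.197 CPM in repeated atrophy (0.55, adjusted p = 0.029; 0.31, adjusted p = 0.31, when rescaled; adjusted p = 0.059 with the block). The gene called lower after repeated atrophy when rescaled was Flt4, the lymphatic VEGF receptor, named after its values were seen, at 3.76 ± 1.14 CPM in control and 2.11 ± 1.05 CPM in repeated atrophy. Its change was -0.62 on deposited CPM (adjusted p = 0.054), -0.90 when rescaled (adjusted p = 0.011) and -0.66 with the block (adjusted p = 0.038). Of 4 apelin pathway partners 2 rose after repeated atrophy on deposited CPM (28.1% of all rows higher) and none when rescaled (13.2%). They were Arrb2, a beta-arrestin (0.53, adjusted p = 0.031; adjusted p = 0.22 with the block), and Gnai2, an inhibitory G protein subunit (0.48, adjusted p = 0.043; adjusted p = 0.13 with the block).

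Of the 26 other endothelial markers 1 rose after atrophy, 3 fell after recovery, and 1 rose and 2 fell after repeated atrophy, with list medians of -0.01, -0.22 and -0.20. Of all rows 20.3% were called higher after atrophy, 3.33% lower after recovery, and 28.1% higher and 6.24% lower after repeated atrophy. When rescaled 11 of the 26 fell after repeated atrophy (median -0.53; 12% of all rows lower), and 12 with block and rescaling (10.2% of all rows lower). Mmrn2, an endothelial matrix gene, went from 33.5 ± 5.29 CPM in control to 23.1 ± 2.98 CPM in repeated atrophy (-0.51, adjusted p = 0.011). Podxl, a surface sialomucin gene, went from 51.9 ± 6.08 CPM in control to 39.7 ± 6.32 CPM in repeated atrophy (-0.38, adjusted p = 0.030). Cd93, a surface receptor gene, rose from 25.7 ± 4.94 CPM in control to 39.8 ± 6.39 CPM in repeated atrophy (0.62, adjusted p = 0.020) and was at 0.25 when rescaled (adjusted p = 0.28). The summed level of these markers was 425 to 523 CPM after atrophy, 375 to 388 CPM after recovery and 357 to 439 CPM after repeated atrophy.

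Of 10 endothelial Notch and arterial genes 2 fell after recovery (3.33% of all rows lower) and 2 after repeated atrophy (6.24% lower), where 5 fell when rescaled (12% lower). Dll4, the Notch ligand of endothelial tip cells, went from 15.9 ± 2.84 CPM in control to 9.71 ± 3.15 CPM in repeated atrophy (-0.68, adjusted p = 0.013), and Notch4, an endothelial Notch receptor, from 22.3 ± 5.94 CPM in control to 13.9 ± 3.37 CPM in repeated atrophy (-0.63, adjusted p = 0.028). Of 16 hypoxia and activity regulators of angiogenesis 4 rose and 1 fell after atrophy (20.3% of all rows higher, 2.33% lower), 1 rose after recovery (4.4% higher), and 3 rose and 5 fell after repeated atrophy (28.1% higher, 6.24% lower). When rescaled 1 rose and 3 fell after atrophy (4.57% higher, 5.17% lower), and 2 rose and 5 fell after repeated atrophy (13.2% higher, 12% lower). Vhl, which directs hypoxia-inducible factors to degradation, went from 13.2 ± 2.55 CPM in control to 30.2 ± 6.03 CPM in repeated atrophy (1.14, adjusted p = 0.00037). Epas1, a hypoxia-inducible factor gene, went from 83.6 ± 21.05 CPM in control to 33.2 ± 20.3 CPM in repeated atrophy (-1.47, adjusted p = 0.0029), and Esrra, a nuclear receptor of oxidative metabolism, from 115 ± 24.7 CPM in control to 59.8 ± 9.56 CPM in repeated atrophy (-0.91, adjusted p = 0.0025). These 5 calls were kept when rescaled and with the block.

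**Figure D5:**
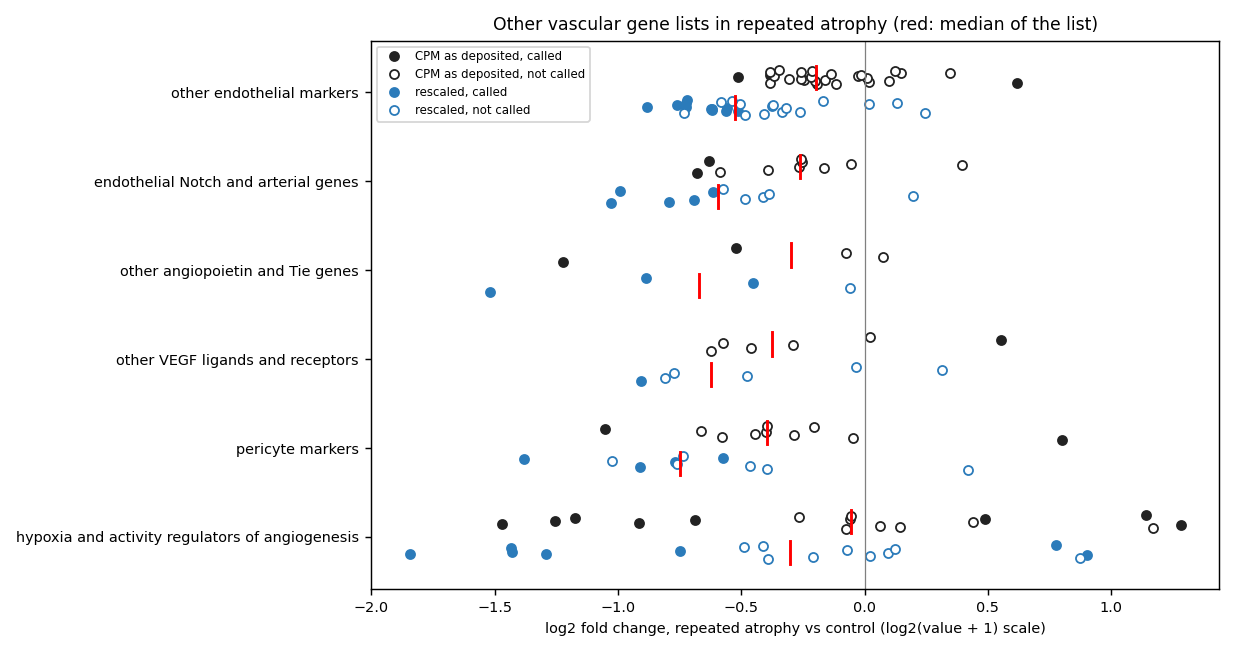
Log2 fold change in repeated atrophy against control for the genes of other vascular lists, on deposited CPM and rescaled; points are genes, filled where called, and red marks are list medians. Among the 26 other endothelial markers 3 were called on deposited CPM (34.3% of all rows called) and 11 when rescaled (25.3%).

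Markers of neighboring cells moved in some groups. Fibroblast markers summed to 1296 to 2476 CPM in recovery against 241 to 675 CPM in control, and 6 of 7 rose (4.4% of all rows higher). Macrophage and leukocyte markers summed to 115 to 237 CPM against 41.5 to 158 CPM, and 4 of 9 rose there. Muscle fibre markers summed to 61267 to 125186 CPM after atrophy and 90729 to 110453 CPM after repeated atrophy against 115608 to 182043 CPM in control. Of these 7, Actn3, a fast-fiber actinin, fell (-2.06, adjusted p = 0.0036) and Mb, myoglobin, rose (1.01, adjusted p = 0.012; 0.19 when rescaled) after repeated atrophy (6.24% of all rows lower, 28.1% higher), and 1 fell after atrophy (2.33% lower). Of 10 genes listed as pericyte markers Abcc9, a potassium channel subunit, rose (0.80, adjusted p = 0.0081; 0.085 when rescaled and 0.051 with the block) and Pdgfb, a growth factor that endothelium makes to recruit pericytes, fell (-1.05, adjusted p = 0.0018) after repeated atrophy, where 28.1% of all rows were higher and 6.24% lower. When rescaled 2 of the 10 pericyte markers were lower after atrophy (5.17% of all rows lower) and 4 after repeated atrophy (12%), with none higher. Setting Pdgfb aside, a choice made after seeing the data, left 1 of 9 higher and none lower after repeated atrophy (the same shares of all rows apply), and when rescaled 1 of 9 lower after atrophy and 3 of 9 after repeated atrophy. Of 4 lymphatic markers 1 rose after atrophy (20.3% of all rows higher) and 1 after recovery (4.4% higher), and of 7 Schwann cell markers 1 fell after atrophy (2.33% lower). None of 6 vascular smooth muscle, 5 adipocyte and 5 red blood cell genes was called against control in limma without the block, on deposited CPM or rescaled. With the block on deposited CPM 0% of all rows were called after atrophy and 0.0641% after recovery, with no listed gene among them. After repeated atrophy the block gave 3 genes of the pericyte list lower (2 of 9 without Pdgfb), 1 smooth muscle marker higher and 1 lower, 1 Schwann cell marker lower, 3 Notch and arterial genes lower and 1 of the 6 VEGF genes lower (5.66% of all rows lower, 21.5% higher). With block and rescaling 4 of 6 smooth muscle markers and 6 of the 10 genes of the pericyte list (5 of 9 without Pdgfb) were lower after repeated atrophy and none higher (10.2% of all rows lower, 10.8% higher), on the scale where 7 of the 10 genes and 12 of the 26 other endothelial markers were lower. The part of these cells in the values of the 10 genes was not tested.

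Over the 18 limbs of the TTX-treated animals, the symbols most like Apln in log2(CPM + 1), among 6487 with a mean of at least 10 CPM, were Lamb3 (0.95), Cyc1 (0.94), Neu2 (0.93), Ndufb8 (0.93) and Pgk1 (0.92), with Pearson r in parentheses. Those most like Vegfa were Ndufa8 (0.88), Mdh1 (0.82), Micos10 (0.81), Coq10a (0.81) and Etfb (0.81), and those most like Kdr were Plpp3 (0.75), Mrpl3 (0.74), Ccdc51 (0.72), Serhl2 (0.71) and Dlst (0.71). The points share animals, group differences and a common scaling, so these values describe a ranking only.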

How the data were processed

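RNA was extracted from both TA muscles of 12 rats, and directional mRNA libraries were sequenced. Per the submitters' processing notes the authors used Partek with STAR, Bowtie2 2.2.5, DESeq2 and build rn7, and the deposited values are CPM per transcript row, each limb summing to a fixed total, with no raw counts used here. The methods name DESeq2 median of ratios as the normalization, under which column totals would not be fixed. The deposited CPM were tested first, and the rescaling below applied that kind of scaling to them. Low values were whole multiples of a 1-read step for 86.4% to 88.4% of cases (tolerance 0.02, under 20 steps), so reads could not be recovered and no count test was run. Depth inferred from these steps was 18.9 to 30.9 M reads (median 26.1). Of 14271 rows, 28 exact duplicates were dropped, and 3 value columns that match no sample were not used.

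Rows above 0 in at least 3 limbs (14031) were tested on log2(CPM + 1) with limma 3.58.1 (R 4.3.3), with a trended variance, 4 groups in 1 fit and Benjamini-Hochberg adjustment over all rows. A separate fit compared sham limbs. Rescaling used the median of ratios over 11397 rows above 0 in every limb. Left and right limbs come from the same animal per the labels, so a fit with the animal as a block is printed for the 10 genes, the called Vegfa rows and the named list genes where it changes a call. Limbs of a group are separate animals. Other pseudocounts, filters, scalings, control sets and left-out animals were tried, and the test was tested on simulated data. Tables were handled in Python 3.11.15 with pandas 2.3.3.

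The 10 genes were all named. Of each other list, up to 3 genes were named, those with the smallest adjusted p among genes called in repeated atrophy with a mean of at least 1 CPM there or in control. The members and lists were chosen with earlier results of these data known.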

Additional observations from a re-analysis of the deposited data

How the results depend on the processing

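The fall of Vegfb after repeated atrophy was called under every alternative run. Counts of called genes of the 10 are given with the share of all rows called in the same setting in parentheses. In atrophy they numbered 1 in place of 2 (22.6%) with a pseudocount of 0.1 or 10, no filter, a random block for the animal, 12 right limbs as control or only the 2 groups fitted (17.1% to 22.6%), 0 with the fixed block with or without rescaling (0% of rows), and 0 to 1 leaving out 1 animal (0.00715% to 34.6%). In repeated atrophy they numbered 7 in place of 3 (34.3%) with median of ratios (25.3%), TMM (25.2%), block and rescaling (21.1%), or summed rows and rescaling (26.8%; this last chosen after seeing the data), 4 with a mean of at least 1 CPM (45.5%) or with summed rows (Vegfa added; 35.8%), 2 with a pseudocount of 10 (Apln lost; 29.8%) or the fixed block (Angpt1 lost; 27.1%), and 1 to 4 leaving out 1 animal (18.4% to 37.6%). In recovery they numbered 0 to 1 leaving out 1 animal (1.32% to 10.6%). In sham left against control they also numbered 0 to 1 leaving out 1 animal, and these recovery shares do not apply there. In recovery against atrophy they numbered 2 in place of 1 (17.9%) with a mean of at least 1 CPM (26.4%) or summed rows (19.8%), 0 with the random block (14.5%), the fixed block with or without rescaling (2 rows in all) or 12 right limbs (15.2%), and 0 to 2 leaving out 1 animal (2.84% to 26.5%). In repeated atrophy against recovery they numbered 1 in place of 2 (27.2%) with a pseudocount of 10 or 12 right limbs (24.7% to 25.2%), 5 with median of ratios or TMM (21.6% to 21.7%), 3 with summed rows (Vegfa added, -0.69, adjusted p = 0.043; 28.96%), 6 with summed rows and rescaling (23.3%), 0 with the fixed block (12 rows in all; 7 with rescaling), and 1 to 4 leaving out 1 animal (13.2% to 30.4%). The causes were not tested. Between sham left and right limbs the fit with no replicate block also gave 0.

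Against control, the changes of the 10 genes that turned direction were ones not called on deposited CPM, and of the turned values only that of Tek with block and rescaling in repeated atrophy was called. In atrophy Tek was -0.22 with median of ratios (also with rows summed), -0.22 with TMM, -0.00887 with the replicate block and -0.26 with block and rescaling. Flt1 was -0.33, -0.33 and -0.23 with median of ratios, TMM, and block and rescaling, -0.0267 with 12 right limbs, -0.37 with summed and rescaled rows, and -0.0147 to 0.10 leaving out 1 animal. Pecam1 was -0.30 (also summed), -0.29, -0.0122 with the block, -0.27 with block and rescaling and -0.12 with 12 right limbs. With the block Vegfa was 0.0275, Vegfb 0.0708 and Kdr 0.19, with Kdr at 0.0125 with the random block and -0.17 to 0.0419 leaving out 1 animal. In recovery the block gave Tek 0.0550, Vegfa -0.18 and Apln -0.54, and with rescaling Vegfa -0.31, Kdr -0.10 and Apln -0.66. Leaving out 1 animal gave Vegfa -0.0751 to 0.26 and Aplnr -0.31 to 0.0134. In repeated atrophy Tek was -0.00117 with a pseudocount of 10, -0.36 with median of ratios (also summed), -0.36 with TMM, -0.18 and -0.0165 with the fixed and random block, -0.55 with block and rescaling (called), -0.0930 with 12 right limbs and -0.12 to 0.16 leaving out 1 animal. Leaving out 1 animal gave Cdh5 -0.77 to 0.0323 and Aplnr -0.11 to 0.0107. Between treated groups Flt1 in repeated atrophy against recovery was -0.33 with median of ratios, -0.32 with TMM, -0.15 with the block, -0.40 with block and rescaling, -0.10 with summed rows, -0.47 with summed and rescaled rows (called) and -0.0438 to 0.14 leaving out 1 animal. Other uncalled changes between treated groups also turned with rescaling or the block. With 3 limbs a group, and Apln and Angpt1 at a few CPM, changes of these low genes are the least precise.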
